A study of Mus musculus with 16 samples.

Results

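Iron handling and hepcidin were followed through 9 genes in mouse liver: the hepcidin genes Hamp and Hamp2, the iron exporter gene Slc40a1, the ferritin receptor gene Scara5, the transferrin receptor genes Tfrc and Tfr2, the transferrin gene Trf and the ferritin subunit genes Fth1 and Ftl1. They were taken by the gene name of each spot (Hamp is written Hamp1 and Tfr2 is written Trfr2 on the array), and all 9 of the 9 were present and passed the filter on dim probes, among 18474 genes tested. Scara5 carried a pair of probes and each other member 1 probe. Liver RNA of male C57BL/6 mice aged 3 months was read on 1-colour Agilent arrays, with 4 arrays in each of 4 groups. The groups were wild-type mice without treatment, wild-type mice given dexamethasone, mice with a liver knockout of the glucocorticoid receptor (GR) without treatment, and that knockout with dexamethasone. This synthetic glucocorticoid activates GR, which the gene Nr3c1 encodes. The labels speak of vehicle in one place and of no treatment in another, and the knockout titles carry the word PBS. The sources used here do not give the dose, route and duration, or the driver of the liver deletion. Nothing in the labels says that each replicate was a separate mouse, so the p-values measure the spread between these samples, which may in part be technical.

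Iron balance turns on the peptide hormone hepcidin, which hepatocytes secrete and which binds ferroportin, the product of Slc40a1 and the route by which iron leaves cells, and leads to its degradation. Hepcidin transcription is driven by bone morphogenetic proteins through SMAD factors when iron stores are high and by interleukin 6 through STAT3 in inflammation. Tfrc takes up transferrin-bound iron, Tfr2 senses it in hepatocytes, Scara5 binds ferritin, and ferritin stores iron inside cells. Tfrc and ferritin are also controlled after transcription by iron regulatory proteins. Arrays of mRNA do not read control of translation.

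Mice carry a pair of hepcidin genes, and each had its own 60-base probe. The probe of Hamp lies on chromosome 7 at 27882251 to 27882310 of the mm7 build and that of Hamp2 at 27862281 to 27862340, both on the minus strand. Both sequences are shown because they decide whether the genes can be told apart. In the best ungapped alignment 42 of 59 bases were the same (71.2%) and the longest shared run was 14 bases. Capitals mark the bases that differ within the alignment. The first base of Hamp and the last base of Hamp2 fall outside it and are in lower case.
Hamp: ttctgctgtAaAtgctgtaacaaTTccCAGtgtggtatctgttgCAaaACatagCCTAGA
Hamp2: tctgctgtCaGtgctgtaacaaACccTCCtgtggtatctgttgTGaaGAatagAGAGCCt
Cross-hybridisation between the pair was not tested.

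The 150 bases before each hepcidin gene's start are shown because the known inputs to hepcidin act there. They were read from RefSeq's promoter table (GRCm38.p6, minus strand) at chr7:30944030-30944179 for Hamp and chr7:30924182-30924331 for Hamp2. Capitals mark matches to GGCGCC, the core of the bone morphogenetic protein response element, and to TTCNNNGAA, the spaced palindrome that STAT factors bind.
Hamp: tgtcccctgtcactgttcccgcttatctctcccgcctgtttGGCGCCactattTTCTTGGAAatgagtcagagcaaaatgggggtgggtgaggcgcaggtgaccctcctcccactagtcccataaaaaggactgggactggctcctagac
Hamp2: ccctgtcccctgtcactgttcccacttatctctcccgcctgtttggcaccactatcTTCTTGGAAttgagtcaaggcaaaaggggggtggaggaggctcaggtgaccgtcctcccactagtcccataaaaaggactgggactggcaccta
Over 147 aligned bases 135 were the same (91.8%). Counted from the first base printed for Hamp, the substitution G45A removes the GGCGCC match from Hamp2, while both genes keep TTCNNNGAA. Searched on both strands in windows from 250 bases before to 50 after the start, GGCGCC occurred in 11.9% of 32851 promoters and TTCNNNGAA in 8.3%. The promoter table held 6 of the 9 members, with 10 promoters. It lacked Scara5, Slc40a1 and Trf, so no motif was searched for in these genes. GGCGCC occurred there in Hamp and in 1 promoter of Tfrc, and TTCNNNGAA in Hamp and Hamp2. The hexamer TGTTCT, an arm of the glucocorticoid response element found in 19.0% of all promoters, occurred after the start in Hamp and Hamp2. The full palindromic response element matched none of the 10 promoters and 0.00913% of all, and the E-box CACGTG none of the 10 and 7.15% of all. A match is a description of letters and not of binding.

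Levels are log2 of the processed signal relative to the array's 75th percentile, so they compare a probe between arrays and not 1 gene with another. The 75th percentile of signal lay between 309 and 691.1 and 57.3% to 67.9% of spots were well above background. Untreated wild-type array 4 (75th percentile 400) and untreated knockout array 1 (309, mean correlation of 0.963 with its group) stood apart, and several results that rest on them are given without them too. Nr3c1 checked the labels: its log2 level was 1.92 to 2.52 on the wild-type arrays and -0.11 to 0.57 on the knockout arrays, a difference of -1.99 ± 0.14 (SE) in untreated liver (limma adjusted p = 1.706e-05). Since no slide carried more than 1 group, a slide effect and a group effect cannot be told apart. Calls are limma's, with Benjamini-Hochberg adjustment over the 18474 genes of a comparison and a threshold of 0.05.

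**Figure D1:**
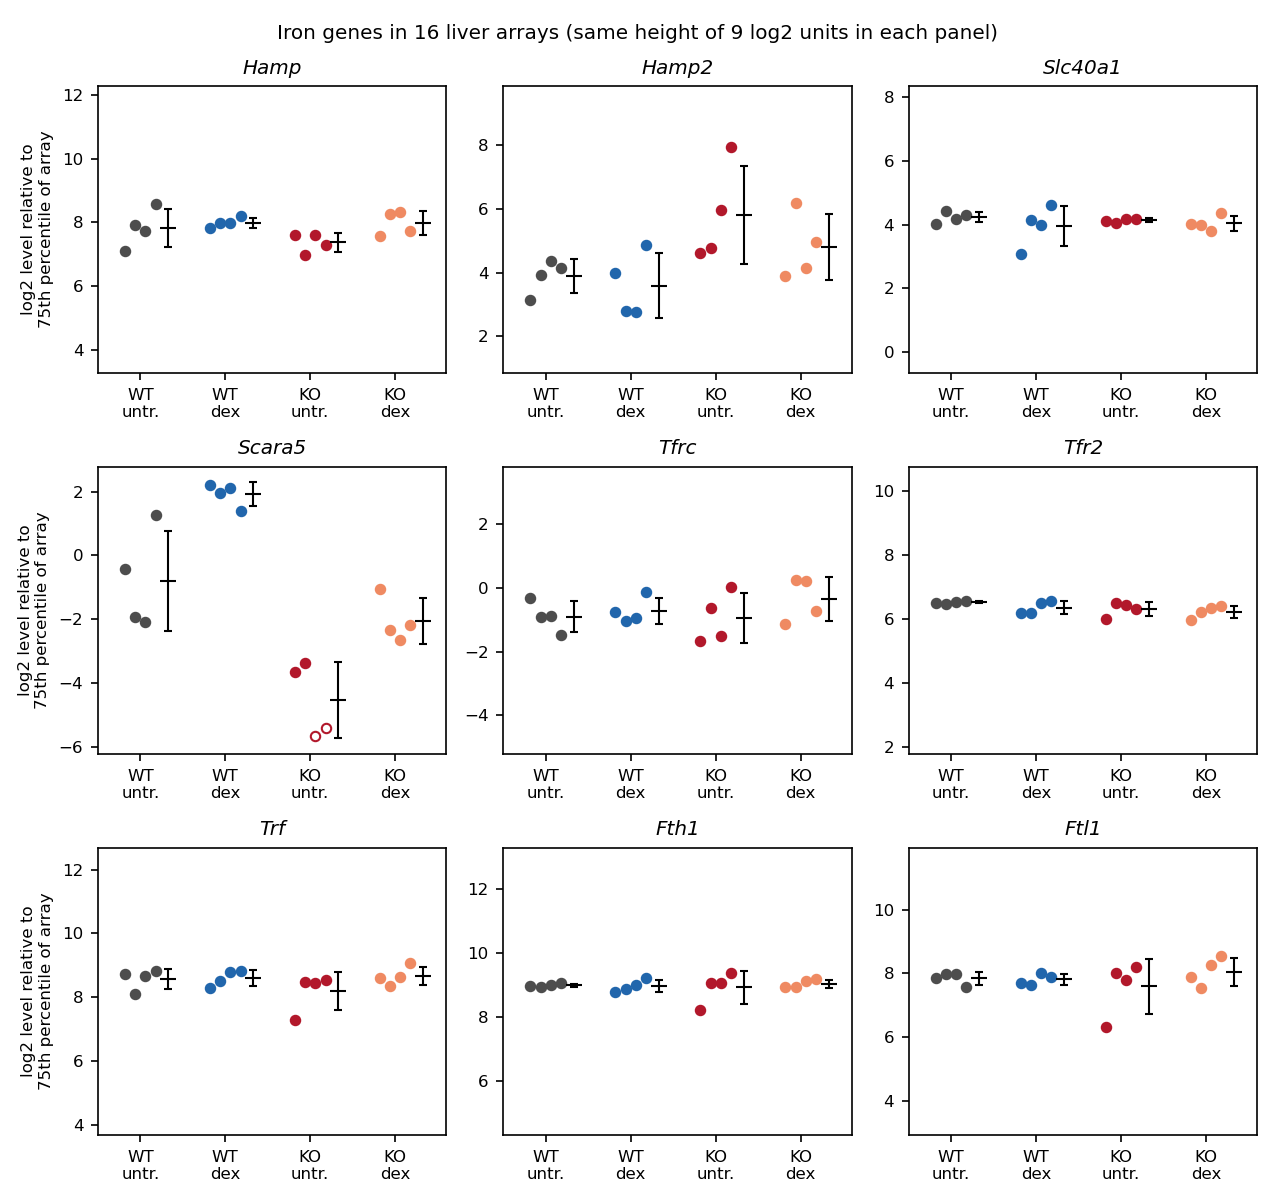
Log2 level of each iron gene relative to the array's 75th percentile, by group (WT wild type, KO GR knockout, untr. untreated, dex dexamethasone). Points are single arrays, open where not well above background, and bars are the mean and SD of 4 arrays. Scara5 spans from -5.68 to 2.22 and follows the groups, while most other members stay within about the same band in every group.

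Scara5, a scavenger receptor that binds ferritin, was the member that changed. Its main probe (chromosome 14, 60624531 to 60624590, mm7, plus strand) read -0.43, -1.94, -2.09 and 1.27 in untreated wild type and 2.22, 1.97, 2.11 and 1.39 with dexamethasone. It read -3.65, -3.37, -5.68 and -5.41 in untreated knockout, with 2 of 4 arrays above background, and -1.04, -2.34, -2.67 and -2.18 in treated knockout. The order of the means was therefore untreated knockout, treated knockout, untreated wild type and treated wild type. The arrays of treated knockout and untreated wild type overlapped, while the other neighbours in that order did not. Untreated wild-type array 4 was the highest of its group, at 1.27 against 1.39 for the lowest treated wild-type array.

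With dexamethasone Scara5 rose in wild type by 2.72 ± 0.68 (SE; 95% interval 1.26 to 4.18), or 6.6-fold, with a limma adjusted p of 0.018. It was 1 of 9 members called in that comparison, against a background of 12% of all genes called (5.12% higher, 6.86% lower). The call was lost without untreated wild-type array 2 (2.34, adjusted p = 0.067), untreated array 3 (2.29, adjusted p = 0.0568) or treated array 1 (2.62, adjusted p = 0.0547), and without untreated array 4 the change was 3.41 (adjusted p = 0.0025).

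In knockout liver the difference with dexamethasone was about as large, 2.47 (95% interval 1.01 to 3.93), with no overlap between the arrays and 2 of 4 untreated arrays not above background, but it was not called (limma adjusted p = 0.061). None of the 9 members was called there by limma, against 3.63% of all genes (1.19% higher, 2.44% lower), and 2 of them, Scara5 and Hamp, had an unadjusted p under 0.05. Without untreated knockout array 1 Scara5 was called, at 2.76 (adjusted p = 0.0468). The interaction, which tests whether dexamethasone acted differently in the genotypes, was -0.25 for Scara5 with a 95% interval from -2.31 to 1.81 (limma adjusted p = 0.958), so neither a much smaller nor a much larger response in knockout could be told from an equal one. No member had a called interaction in limma or an unadjusted p under 0.05, against 4.62% of all genes called (1.93% higher, 2.69% lower).

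Scara5 was lower in knockout than in wild type with and without dexamethasone. In untreated liver the knockout differed by -3.73 (95% interval -5.19 to -2.27), with a limma adjusted p of 0.0118. No fold is given for it, as 2 of the 4 untreated knockout arrays were not above background. With dexamethasone it differed by -3.98 (95% interval -5.44 to -2.52), or 15.8-fold, with a limma adjusted p of 0.00114. No knockout array reached a wild-type array of the same treatment. It was the only one of the 9 members called in either genotype comparison, against 2.82% of all genes in untreated liver (2.07% higher, 0.752% lower) and 22.4% with dexamethasone (14.2% higher, 8.21% lower). The difference in untreated liver was not called with normexp background correction (-2.09, adjusted p = 0.0767) or when only the 2 groups entered the fit (-3.73, adjusted p = 0.0887), whereas the difference with dexamethasone was called under every alternative run. The comparisons share arrays: treatment and genotype effects in untreated wild type rest on the same 4 arrays.

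The second Scara5 probe (chromosome 14, 60602477 to 60602536, mm7, plus strand) was dimmer. It read -5.27, -6.15, -4.66 and -2.66 in untreated wild type, -2.86, -1.92, -2.13 and -3.31 in treated wild type, -6.41, -7.33, -7.58 and -7.47 in untreated knockout and -3.52, -5.92, -7.37 and -6.34 in treated knockout. Above background were 2, 4, 0 and 1 of the 4 arrays of these groups. Treated wild type lay highest on average, and the knockout groups were mostly below detection, so their order cannot be read. This probe passed the filter through treated wild type only, so its difference between genotypes with dexamethasone (-3.23) is a description. The change with dexamethasone in wild type was 2.13 and was not called by limma over all probes (adjusted p = 0.0845). Untreated knockout was above background on 0 of 4 arrays and untreated wild type on 2 of 4. No fold or bound is therefore given for the genotype difference without dexamethasone. Its fitted value of -2.51 was not called (adjusted p = 0.0916).

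**Figure D2:**
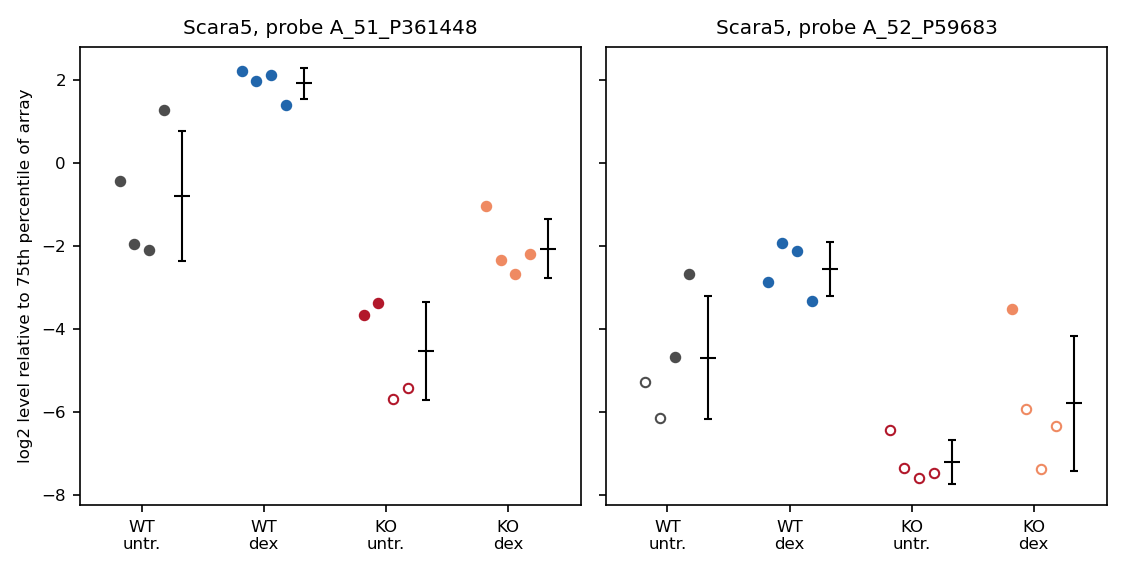
Both Scara5 probes by array and group, as log2 level relative to the array's 75th percentile, with mean and SD of 4 arrays. Filled points are well above background and open points are not. Treated wild type has the highest mean on both probes, and the dimmer probe is above background on all 4 arrays only there.

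RNA of whole liver cannot tell fewer cells of a type from less RNA per cell. Markers of stellate cells and fibroblasts had an average log2 level of 0.20 to 0.45 in untreated and 0.53 to 0.93 in treated wild type, and of 0.39 to 0.80 in untreated and 0.42 to 0.53 in treated knockout. Of these 12 markers 1 was called higher with dexamethasone in each genotype, against 5.12% of all genes in wild type and 1.19% in knockout. None of the markers was called by limma in either genotype comparison, where 2 without and 0 with dexamethasone had an unadjusted p under 0.05. Hepatocyte markers averaged 7.47 to 7.99 and 7.87 to 8.04 in untreated and treated wild type, and 7.17 to 7.32 and 7.16 to 7.41 in untreated and treated knockout, with 2 of 9 called lower in knockout without dexamethasone and 6 of 9 with it. Of all genes 0.752% and 8.21% were called lower in those comparisons. With dexamethasone 2 of the 9 hepatocyte markers were called higher in wild type and 0 in knockout. B cell markers were lower with dexamethasone, 4 of 6 called in each genotype. The share of all genes called lower with it was 6.86% in wild type and 2.44% in knockout. In knockout against wild type 1 of 6 B cell markers was called higher without dexamethasone and 2 with it. Of all genes 2.07% and 14.2% were called higher there. Of 11 sinusoidal endothelial markers 1 was called higher and 2 lower with dexamethasone in wild type. In knockout 1 was called higher and 1 lower with it, and 0 were called in either genotype comparison. The part of these cell types in the Scara5 result was not tested.

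By the likeness of pattern over all 16 arrays, the genes closest to Scara5 were 2810408A11Rik (Pearson r = 0.966), Ftsj3 (0.959) and Crnkl1 (0.958), out of 15127 genes with a symbol. These points share arrays and groups, and the correlation is a description. Their changes were smaller: with dexamethasone in wild type 2810408A11Rik rose by 1.21 and Ftsj3 by 0.42 (limma adjusted p = 0.00483 and 0.0339), and Crnkl1 had a change of 0.27 that was not called.

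Hamp, which encodes the main circulating hormone, was well above background on every array and was not called in any comparison. Its log2 level was 7.10, 7.91, 7.73 and 8.57 in untreated wild type, 7.83, 7.98, 7.97 and 8.20 in treated wild type, 7.62, 6.98, 7.62 and 7.28 in untreated knockout and 7.58, 8.25, 8.34 and 7.74 in treated knockout. Untreated knockout was lowest on average (7.37 ± 0.31, SD, n = 4), against 7.83 ± 0.61 in untreated wild type, and these groups overlapped. Its arrays lay below all 4 of treated wild type and overlapped those of treated knockout. The difference with dexamethasone was 0.17 in wild type (95% interval -0.40 to 0.73) and 0.60 in knockout (95% interval 0.04 to 1.17, limma adjusted p = 0.264). In knockout against wild type it was -0.45 without dexamethasone (95% interval -1.02 to 0.11) and -0.02 with it (95% interval -0.58 to 0.55). Without the 2 arrays that stood apart the change in wild type was 0.41, that in knockout 0.68 and the untreated genotype difference -0.29, none called.

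Hamp2, the second mouse hepcidin gene, varied most among the members within groups. It read 3.14, 3.92, 4.37 and 4.15 in untreated wild type, 3.97, 2.78, 2.76 and 4.86 in treated wild type, 4.61, 4.77, 5.95 and 7.94 in untreated knockout and 3.90, 6.17, 4.16 and 4.97 in treated knockout. All 4 untreated knockout arrays lay above all 4 untreated wild-type arrays. The mean was 1.92 higher in untreated knockout (95% interval 0.43 to 3.42, limma adjusted p = 0.147) and 1.21 higher with dexamethasone (95% interval -0.29 to 2.70, adjusted p = 0.238), neither called. Untreated knockout array 4 held the highest value, and without it the first difference was 1.21. With dexamethasone the change was -0.30 in wild type (95% interval -1.79 to 1.19) and -1.02 in knockout (95% interval -2.51 to 0.48). The SD within groups, 1.09, was larger than that of 98.6% of genes, and that of Scara5, 1.06, larger than that of 98.5%.

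Slc40a1, the exporter that hepcidin controls, kept its 4 group means between 3.96 and 4.23. Its arrays read 4.03, 4.42, 4.18 and 4.30 in untreated and 3.09, 4.13, 4.00 and 4.60 in treated wild type, and 4.12, 4.06, 4.19 and 4.19 in untreated and 4.00, 3.97, 3.78 and 4.38 in treated knockout. The 95% intervals reached from -0.79 to 0.23 for dexamethasone in wild type and from -0.61 to 0.41 for knockout against wild type without dexamethasone. Groups overlapped and no comparison was called. Kupffer cells, the macrophages of the liver, are rich in ferroportin. Of 12 of their markers none was called by limma in any of the 5 comparisons, with 6 at an unadjusted p under 0.05 in untreated knockout against wild type, 3 in treated knockout against wild type, 3 with dexamethasone in knockout and 0 in the others.

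Of the transferrin receptors, Tfr2, the sensor in hepatocytes, was steadier than most genes: its SD within groups was 0.18, and 15.7% of genes had a lower one. All 16 arrays lay between 5.97 and 6.56. Its group means were 6.53, 6.36, 6.32 and 6.23 in untreated and treated wild type and untreated and treated knockout, and the difference between untreated knockout and untreated wild type was -0.21 (95% interval -0.50 to 0.09), or -0.09 without the 2 arrays that stood apart. Tfrc, the uptake receptor, had group means of -0.90, -0.72, -0.95 and -0.35 in the same order, with arrays from -1.66 to 0.24. Its probe was spotted 10 times on each array and those spots differed by an SD of 0.036 to 0.13, well below the SD of 0.61 between arrays of a group. The Tfrc difference with dexamethasone was 0.18 in wild type (95% interval -0.67 to 1.03) and 0.60 in knockout (95% interval -0.25 to 1.45), and without the 2 arrays that stood apart -0.01 and 0.36. Neither receptor was called in any comparison.

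Trf, the plasma iron carrier made by hepatocytes, and the ferritin subunits were bright on every array and none was called. Trf had group means of 8.58, 8.60, 8.19 and 8.66 in untreated and treated wild type and untreated and treated knockout. Fth1, the heavy subunit, had means of 8.99, 8.97, 8.92 and 9.04, and Ftl1, the light subunit, 7.84, 7.81, 7.59 and 8.05. The low means of untreated knockout rested on array 1, which read 7.29, 8.20 and 6.33 for the 3 genes, against 8.44 to 8.55, 9.06 to 9.39 and 7.81 to 8.20 on the others. The change of Fth1 with dexamethasone was -0.02 in wild type (95% interval -0.44 to 0.40) and 0.11 in knockout (95% interval -0.31 to 0.54). That of Ftl1 was -0.03 (95% interval -0.74 to 0.67) and 0.46 (95% interval -0.24 to 1.17). Without the 2 arrays that stood apart the knockout changes were -0.13 for Fth1 and 0.04 for Ftl1, and those in wild type 0.0043 and -0.13. The remaining probes lay, on mm7, on chromosome 1 at 46145061 to 46145120 (Slc40a1), chromosome 16 at 32306693 to 32306752 (Tfrc), chromosome 5 at 136505632 to 136505691 (Tfr2), chromosome 9 at 102929342 to 102929957 (Trf), chromosome 19 at 9665120 to 9665179 (Fth1) and chromosome 7 at 41635335 to 41635394 (Ftl1). A further probe, named Ftl2 on the array, also lists the accession of Ftl1 and was not called in any comparison.

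Across the 9 members the median change was -0.02 with dexamethasone in wild type, 0.46 in knockout, 0.18 for the interaction, and -0.21 and 0.07 for knockout against wild type without and with dexamethasone. The medians of all genes were -0.04, -0.0044, 0.04, 0.05 and 0.09. Without untreated knockout array 1 and untreated wild-type array 4 the members' medians in knockout with dexamethasone, for the interaction and in untreated knockout were 0.04, 0.06 and -0.01. The medians of all genes without those arrays were 0.02, 0.04 and 0.04.

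**Figure D3:**
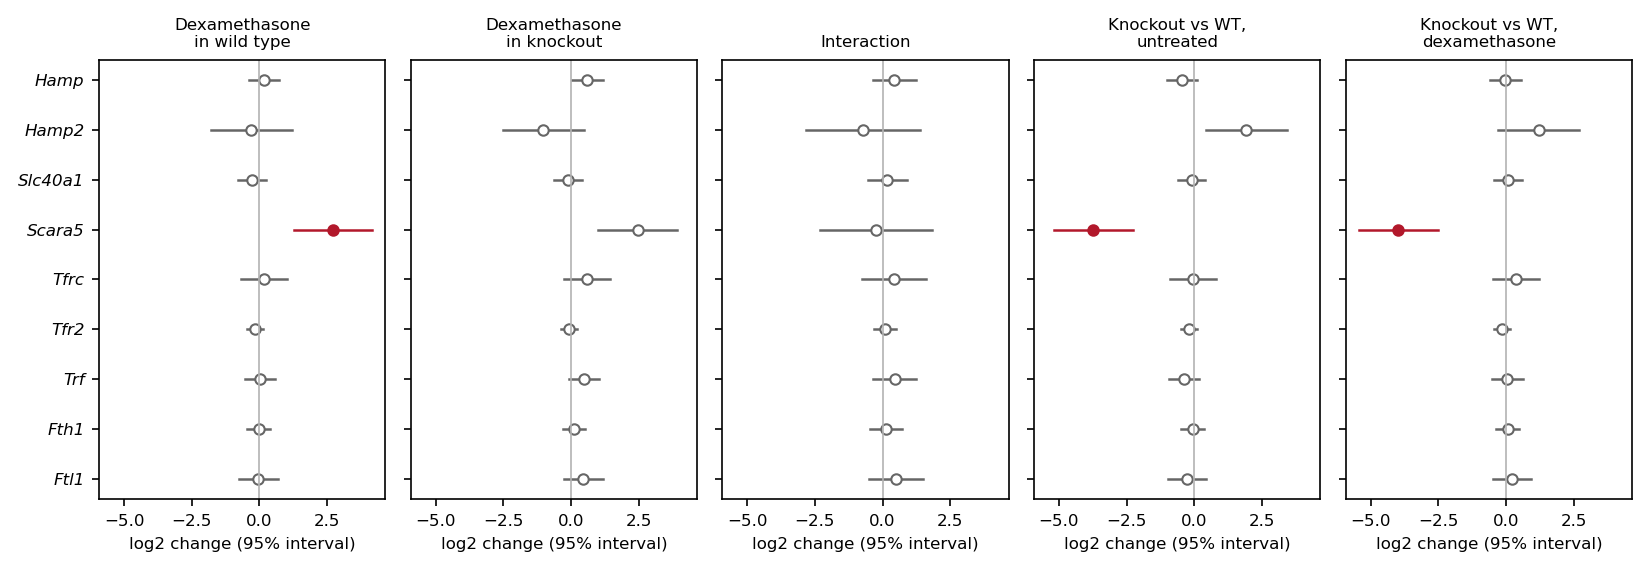
Log2 change of the 9 iron genes in the 5 comparisons, with 95% intervals from limma on 16 arrays. Filled red points are called (adjusted p under 0.05) and open grey points are not. Scara5 is called in 3 comparisons, and its interval excludes 0 in the fourth without a call, as does that of Hamp there and of Hamp2 in untreated knockout against wild type.

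The pathways around these genes were read from 5 lists of 79 further genes, of which 77 were tested. In the list of bone morphogenetic protein and SMAD control, 1 of 22 genes fell with dexamethasone in wild type, where 6.86% of all genes fell: Tmprss6, the protease that dampens hepcidin induction, by 0.48 ± 0.11 (SE; limma adjusted p = 0.0139), a call lost without treated array 1 (-0.42, adjusted p = 0.0552). None was called by limma in the knockout, for the interaction or between untreated genotypes, where 2, 3 and 2 had an unadjusted p under 0.05. In treated knockout against treated wild type 4 were higher and 1 lower, a share close to the 22.4% of all genes called there. Higher were the SMAD target genes Id2 (1.17 ± 0.36), Id1 (1.06 ± 0.33) and Smad6 (0.47 ± 0.14), and Tmprss6 (0.38 ± 0.11), and lower was the activin receptor gene Acvr2a (-0.46 ± 0.15), with limma adjusted p of 0.0317, 0.0349, 0.023, 0.0263 and 0.0433. Leaving out 1 of the 8 arrays in turn ended these calls 5, 6, 4, 5 and 8 times. The list's median was 0.14 in that comparison and -0.18 with dexamethasone in wild type. Hamp, on which this pathway acts, had changes of -0.02 and 0.17 there.

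In the list of interleukin 6, STAT3 and other inflammatory inputs, 3 of 13 genes rose with dexamethasone in wild type, where 5.12% of all genes rose, and 1 in knockout, where 1.19% did. Il6ra, the receptor for interleukin 6, read -0.17, -0.23, -0.95 and -0.03 in untreated and 1.06, 0.56, 0.93 and 0.64 in treated wild type, a rise of 1.14 ± 0.26 (limma adjusted p = 0.0117) that was called whichever array was left out. Knockout was lower, with a difference of -1.36 ± 0.26 without dexamethasone (limma adjusted p = 0.0152) and -2.30 ± 0.26 with it (adjusted p = 7.501e-05). The first of these calls was lost without untreated wild-type array 2 (-1.32, adjusted p = 0.0526) and without the 2 arrays that stood apart (-1.29, adjusted p = 0.0547). Il1r1, the interleukin 1 receptor, rose by 1.78 ± 0.46 in wild type (adjusted p = 0.0206), a call lost without 4 of the 8 arrays (1.52 to 2.30), and was lower in treated knockout, at -3.24 ± 0.46 (adjusted p = 0.0003027). Inhbb, the subunit of activin B, rose in both genotypes, by 1.61 ± 0.31 in wild type (adjusted p = 0.00414) and 1.37 ± 0.31 in knockout (adjusted p = 0.0249), but averaged over its probes it was not called (0.67 and 0.65), and the knockout call was lost without 5 of the 8 arrays. Treated knockout also had higher Il22ra1 (1.05 ± 0.23, adjusted p = 0.00544) and Cebpa (0.43 ± 0.14, adjusted p = 0.0398, lost without 7 of the 8 arrays). The list's medians were -0.13 and 0.20 with dexamethasone in wild type and knockout. No gene of this list had a called interaction in limma, against 4.62% of all genes, and 3 had an unadjusted p under 0.05.

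Among 21 other genes of iron transport, reduction, storage and sensing, 5 rose and 1 fell with dexamethasone in wild type, where 5.12% of all genes rose and 6.86% fell. Slc39a14, an importer of iron not bound to transferrin, read 1.56, 1.86, 1.86 and 2.52 in untreated and 3.63, 3.06, 3.45 and 3.67 in treated wild type. Its knockout arrays read 1.36, 1.32, 1.50 and 1.24 untreated and 1.32, 1.51, 1.23 and 1.57 treated. Treated wild type stood above all other arrays, and the rise of 1.50 ± 0.19 in wild type (limma adjusted p = 0.0003505) was not seen in the knockout means (0.05, 95% interval -0.35 to 0.45). The interaction of -1.45 ± 0.27 was called (limma adjusted p = 0.00806), also without any 1 array (-1.64 to -1.32), and treated knockout lay below treated wild type by a difference of -2.04 ± 0.19 (adjusted p = 2.655e-05).

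The metalloreductase gene Steap4 rose by 2.05 ± 0.48 in wild type (limma adjusted p = 0.0129) and was lower in treated knockout (-2.42 ± 0.48, adjusted p = 0.00288). Lcn2, which binds bacterial iron carriers and is an acute phase protein, rose by 6.44 ± 0.93 (adjusted p = 0.0008807) from values that in untreated wild type ran from -4.94 to 0.63. It was lower in treated knockout (-5.08 ± 0.93, adjusted p = 0.00167). Ncoa4, the receptor that carries ferritin to lysosomes, rose by 0.78 ± 0.18 (adjusted p = 0.0112) and was lower in treated knockout (-0.89 ± 0.18, adjusted p = 0.00293); it was named after its values were seen. The ferroxidase gene Heph rose by 1.03 ± 0.21 in wild type (adjusted p = 0.00593) and 0.82 ± 0.21 in knockout (adjusted p = 0.044), and the knockout call was lost without 7 of the 8 arrays (0.64 to 0.98). Both Heph calls were lost with normexp background correction (0.47 in wild type and 0.68 in knockout).

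Slc25a37, the mitochondrial iron importer, fell by 1.18 ± 0.23 in wild type (limma adjusted p = 0.0047) and was 1.36 ± 0.23 higher in treated knockout (adjusted p = 0.00103). Its probes disagreed: averaged over them the change in wild type was -0.69 and not called, and the change in knockout was 1.57 and called (adjusted p = 0.0408) in place of -0.09. Ltf, lactoferrin, was 1.39 ± 0.46 higher in treated knockout (adjusted p = 0.0428), a call lost without 6 of the 8 arrays. Lactoferrin and Lcn2 are also neutrophil products, and the 5 neutrophil markers tested averaged -4.03 to -3.28 on treated wild-type and -3.61 to -2.22 on treated knockout arrays, with none called by limma between them and 3 at an unadjusted p under 0.05; their part was not tested. Without the 2 arrays that stood apart 6 of the 21 genes had a called interaction in place of 1, among them Lcn2 (-5.74), Steap4 (-1.90), Slc25a37 (1.32) and Ncoa4 (-0.69). Among all genes tested the called interactions rose too, from 853 to 1505. The list's medians were -0.08 and 0.05 with dexamethasone in wild type and knockout and 0.0021 in treated knockout against treated wild type.

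**Figure D4:**
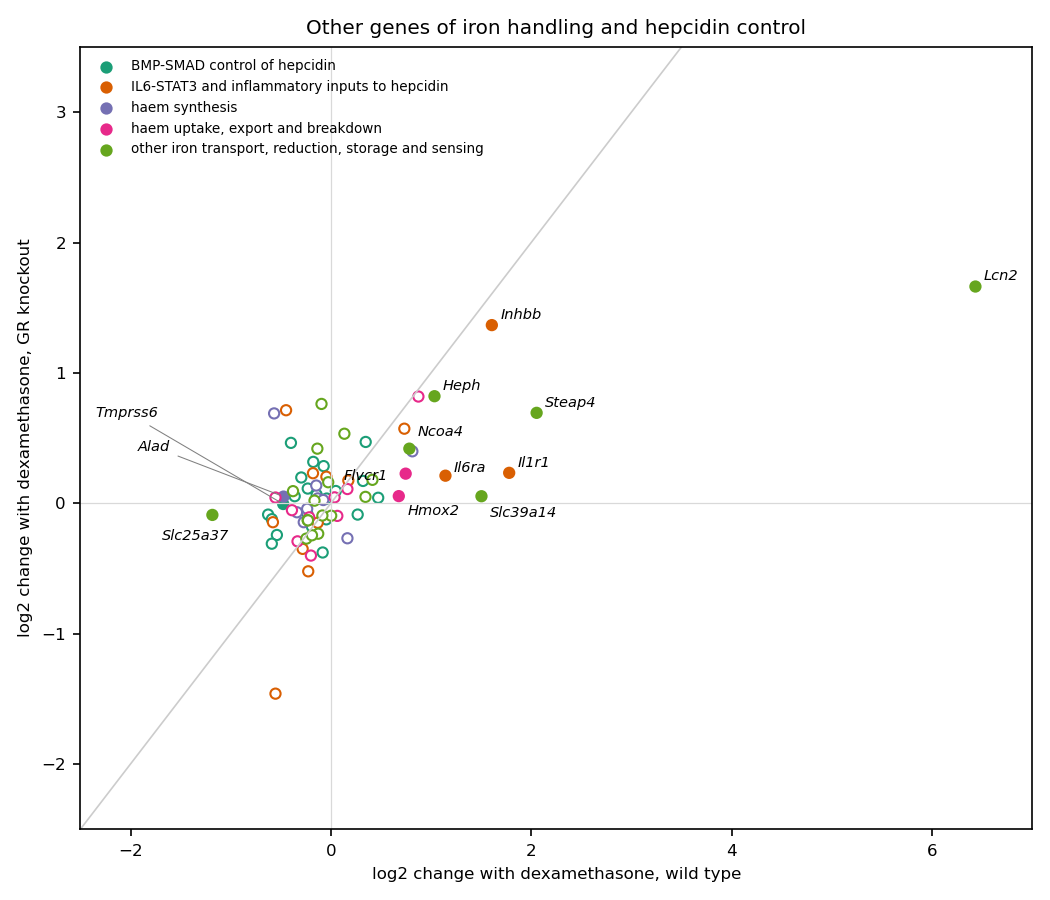
Log2 change with dexamethasone in wild type (x axis) and in GR knockout (y axis) of the other tested genes of iron handling and hepcidin control, coloured by list; the comparisons share no array. Filled points are called in either genotype and the line marks equal changes. Inhbb and Heph lie near the line, while Lcn2, Steap4, Il1r1, Il6ra and Slc39a14 lie below it. Of these only Slc39a14 had a called interaction in the main fit.

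Haem is the other large pool of iron. Among 12 genes of its uptake, export and breakdown, 2 rose with dexamethasone in wild type and none fell, against 12% of all genes called. Hmox2, the constitutive haem oxygenase, rose by 0.68 ± 0.12 (limma adjusted p = 0.00232), against 0.05 in knockout (95% interval -0.19 to 0.30). It was lower in knockout, by differences of -0.54 ± 0.12 without dexamethasone (adjusted p = 0.0244, lost without untreated wild-type array 2 or 4, at -0.57 and -0.46) and -1.17 ± 0.12 with it (adjusted p = 3.607e-05). The untreated Hmox2 difference was also not called by limma without the 2 arrays that stood apart (-0.41, adjusted p = 0.0698). The Hmox2 interaction of -0.62 ± 0.17 was called (adjusted p = 0.0445), but not without 13 of the 16 arrays in turn or with the replicate block. Flvcr1, a haem exporter, rose by 0.75 ± 0.18 in wild type (adjusted p = 0.0156), a call lost without untreated array 2 (0.60) or treated array 1 (0.62), and was lower in treated knockout (-0.57 ± 0.18, adjusted p = 0.0368, lost without 4 of the 8 arrays).

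In treated knockout Hmox1, the inducible haem oxygenase, was 0.83 ± 0.26 higher than in treated wild type (limma adjusted p = 0.0335, lost without 5 of the 8 arrays), and the haem transporter gene Slc48a1 was 0.67 ± 0.18 higher (adjusted p = 0.014). The Slc48a1 call was lost with normexp background correction (0.54) and when its probes were averaged (0.47). Of 10 genes of haem synthesis 1 fell with dexamethasone in wild type, where 6.86% of all genes did: Alad, by 0.47 ± 0.12 (adjusted p = 0.0226, lost without 4 of the 8 arrays). Alad was 0.68 ± 0.12 higher in treated knockout (adjusted p = 0.00166), as was Ppox, another enzyme of the pathway, by 0.58 ± 0.13 (adjusted p = 0.00592). No gene of either haem list was called by limma in knockout with dexamethasone, and 1 of 12 and 0 of 10 had an unadjusted p under 0.05. Of the 40 calls of list genes named, 22 held whichever array was left out, and 16 were lost with normexp background correction.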

How the data were processed

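Scanner signals were extracted by the authors with Agilent Feature Extraction, version 9.5 per the submitters' processing notes. The deposited processed signal is an intensity, background-subtracted per the file headers, with flags of the kind other, and the deposited series table held the same intensity (largest difference 0). Control spots were dropped, spots marked as outliers (0.306%) became missing values, and each array's log2 signal had its 75th percentile subtracted. A probe was kept if well above background on 3 or more of a group's 4 arrays, and the brightest stood for its gene. Limma 3.58.1 (R 4.3.3), checked on simulated data, fitted 4 group means to 16 arrays, with 12 residual degrees of freedom, two-sided. Figures used matplotlib 3.10.9 in Python 3.11.15. The members and lists were chosen with earlier results of these data known. Of the other lists, up to 4 called genes a list and comparison were named, largest change first; genes alike were the 3 with the highest correlation. Replicate numbers were not used as pairs in the main fit, and whether they pair the samples is not known. Residuals of same-numbered arrays correlated between -0.186 and 0.347 (median 0.0761), and 10 of 24 pairs passed 0.1. Alternatives covered background correction, scaling, filters, joining of probes, the variance model, weights, blocks and arrays left out.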

Additional observations from a re-analysis of the deposited data

Results flagged for a closer look

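Arrays far from the other 3 of their group were looked for in 136 sets of 4 values, of the members' probes and the list genes named, and 8 were found; chance marks about 1 in 20 such sets. Untreated knockout array 1 accounted for 4 of them: Trf read 7.29 there against 8.44 to 8.55 on the others, Steap4 -2.49 against -0.23 to 0.16, Ncoa4 2.94 against 3.69 to 3.75, and Slc48a1 2.32 against 2.78 to 2.84. Untreated wild-type array 4 accounted for 2: Ncoa4 read 4.45 against 3.90 to 3.95 and Hmox2 4.32 against 3.97 to 3.99. Treated wild-type array 4 read -1.92 for Acvr2a against -2.34 to -2.30, and treated knockout array 1 read 2.20 for Slc25a37 against 2.82 to 2.88.

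The response to dexamethasone differed between the genotypes, by the interaction in limma, for Slc39a14 (-1.45 ± 0.27, adjusted p = 0.00806) and Hmox2 (-0.62 ± 0.17, adjusted p = 0.0445). Both rose in wild type and had no called change in knockout. The Slc39a14 interaction was called whichever array was left out, while that of Hmox2 lost its call without 13 of the 16 arrays in turn, with normexp, without the filter on dim probes and with the replicate block.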

How the results depend on the processing

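Scara5 was called lower in treated knockout under every alternative run. Its rise in wild type lost the call without 3 single arrays (range over left-out arrays 2.29 to 3.41), and its difference in untreated knockout lost it with normexp (-2.09) and with only the groups compared (-3.73). Its change with dexamethasone in knockout was called with quantile normalization (2.56), without both arrays that stood apart (2.76, an alternative chosen after seeing the data) and without untreated knockout array 1 alone, but not without any of the other 7; values over left-out arrays ran from 2.09 to 2.86. The interaction ranged from -0.94 to 0.18 over left-out arrays, changing sign without a call. For the other 8 members, none called in the main fit, 895 of 896 values kept their side of the threshold, and 57 changed sign without a call. Hamp in knockout was called with array weights (0.91, adjusted p = 0.0335). Averaging probes turned Slc25a37 in knockout to 1.57. The cause of these shifts was not tested.

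Counts of genes called in wild type with dexamethasone, knockout with dexamethasone, the interaction, and untreated and treated genotypes were 2214, 671, 853, 521 and 4147. With normexp they were 1203, 46, 102, 84 and 2384, and with array weights 5014, 1829, 2744, 1635 and 6699. Without both arrays the first 3 were 3379, 1076 and 1505. Without a filter on dim probes the knockout, interaction and untreated genotype counts were 419, 543 and 272. With only the groups compared the knockout and untreated genotype counts were 129 and 90, and quantile normalization gave 1085 in knockout. Over left-out arrays they ranged from 1219 to 2199, 313 to 926, 498 to 1485, 157 to 644 and 2939 to 3685. With the replicate block they were 2175, 806, 1062, 776 and 4171, and no call of a member changed. A slide block could not be fitted, because each slide held 1 group. The dim probes of Scara5 in untreated knockout limit its fold.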
